A study of Mus musculus with 7 samples.

Results

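Antioxidant enzymes and metallothioneins were followed in cancer-associated fibroblasts (CAFs) that had been sorted from mouse pancreatic tumors. The group was set by gene name: 10 genes were taken, and 9 of them, Nqo1, Gclc, Gclm, Txnrd1, Srxn1, Sod1, Sod3, Mt1 and Mt2, were among the 12771 genes of the count table. Sod2 was not analysed here. The tumors grew in the pancreas of 8-week-old male C57BL/6 mice (C57BL/6 J in the study's methods) from KPC cells, 1 mouse pancreatic cancer line, and were harvested 2 to 3 weeks after injection. The cancer cells of both groups had been infected with a lentiviral pLKO.1 vector and selected with puromycin. In the shBrca2 group (4 libraries, replicates 1, 2, 3 and 4) the vector held a hairpin against Brca2, and in the shControl group (3 libraries, replicates 1, 2 and 4) it held a non-targeting hairpin. The hairpin sat in the cancer cells and not in the fibroblasts, so Brca2 RNA in these libraries does not measure the silencing. The sort kept live cells with podoplanin on the surface and without CD45, CD31 or EpCAM, and the 3′ ends of their poly(A) RNA were sequenced.

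Reactive oxygen species are disposed of in steps, and the genes described here stand at different ones. Superoxide dismutases turn superoxide into hydrogen peroxide. Sod1 codes for the copper-zinc enzyme of the cytosol and Sod3 for the secreted enzyme that binds the extracellular matrix and vessel walls. Peroxides are then reduced with electrons from glutathione or thioredoxin. Gclc and Gclm code for the catalytic and the modifier subunit of glutamate-cysteine ligase, the rate-limiting enzyme of glutathione synthesis. Txnrd1 codes for the cytosolic thioredoxin reductase, a selenoprotein, and Srxn1 for sulfiredoxin, which repairs over-oxidized peroxiredoxins. Nqo1 codes for a quinone reductase. The transcription factor NRF2 (Nfe2l2), which KEAP1 holds in check in unstressed cells, drives Nqo1, Gclc, Gclm, Txnrd1 and Srxn1 through antioxidant response elements. Metallothioneins 1 and 2 (Mt1, Mt2) are small cysteine-rich proteins that bind zinc and copper. They are induced by metals through the zinc sensor MTF-1, and also by glucocorticoids and inflammatory signals.

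None of the 9 genes passed the test between shBrca2 and shControl CAFs. The extracellular dismutase Sod3 came nearest, with a mean in shBrca2 CAFs that was 0.624 of the shControl mean, but 1 of its 4 shBrca2 libraries lay within the shControl range. Mt1 and Mt2 had nearly equal means in both groups, while their level differed about 2.00-fold and 2.01-fold between the highest and the lowest shBrca2 library. Around them, the heme-degrading enzyme Hmox1 and the NRF2 antagonist Bach1 were called higher. The secreted glutathione peroxidase Gpx3 and the glutathione transferase Gstm1 were called lower. The calls of Hmox1 and Gpx3 held in all 13 alternatives run, that of Gstm1 in 12 and that of Bach1 in 8. Of 11 NRF2 regulators 1 was called, of 23 further NRF2 targets 1 higher and 2 lower, and of 17 glutathione enzymes 3 lower. Over all genes tested, 9.04% were called in either direction.

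The library totals ran from 1898679 to 5990579 counts, with shBrca2 replicate 3 the shallowest and shBrca2 replicate 2 the deepest. The sort marker Pdpn stood at 641 ± 36.6 normalized counts in the shControl group and at 539 ± 57.3 in the shBrca2 group (mean ± SD over 3 and 4 libraries, as for all group means below). The fibroblast gene Pdgfra had means of 623 and 630.1 normalized counts. Of 13 fibroblast markers, all listed, 4 were called lower (Dcn, Lum, Pi16 and Dpt) and none higher, and their summed level ran from 153314 to 169300 normalized counts in shControl libraries and from 117664 to 142233 in shBrca2 libraries. Of 10 epithelial markers, 8 were listed and 5 were called higher. Their sum ran from 417 to 1219 normalized counts in shControl and from 1587 to 2167 in shBrca2 libraries, and Epcam was not among the listed genes. The immune marker sum ran from 309 to 334 in shControl and from 391 to 496 in shBrca2 libraries, with 2 of 8 tested markers called higher and 1 lower. The pericyte sum ran from 532 to 969 and from 1055 to 1260, with 2 of 7 called higher. The mesothelial sum ran from 907 to 2922 and from 2402 to 2905, with 1 of 8 called higher. That 1 was Krt19, which is also among the called epithelial markers. The acinar sum ran from 161 to 277 and from 103 to 164, with 4 of 9 called lower and 1 higher. The log2 fold change was below 0 for 8 of these 9 genes, and the median was -2.37. An unadjusted p under 0.05 was reached by 8 of them with DESeq2 and by 9 with edgeR. The endothelial sum ran from 126 to 182 and from 123 to 144, with 0 of 5 called by DESeq2 and 1 by edgeR, and 2 at an unadjusted DESeq2 p under 0.05. The log2 fold change was below 0 for 4 of the 5 endothelial genes, and the median was -1.11. The fibroblast, epithelial, immune and pericyte sums did not overlap between the groups, while the mesothelial, acinar and endothelial sums did. The calls of Pi16, Krt8, Krt18, Csf1r and Ndufa4l2 held in all 13 alternatives run, those of Dcn, Krt19 and Cldn3 in 7 and that of C1qa in 5. By edgeR 3 fibroblast, 4 epithelial, 2 immune and 2 pericyte markers and 0 mesothelial markers were called, and 3 of the mesothelial ones had an unadjusted edgeR p under 0.05. The part of these markers in the values below was not tested. In such bulk samples fewer cells of a type and less RNA per cell cannot be told apart.

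The metallothionein genes lie side by side on chromosome 8 (mm10, the build in the submitters' processing notes), Mt2 at chr8:94172618-94173567 and Mt1 at chr8:94178883-94180327, both on the plus strand. Their start regions are shown because they were searched for metal response elements, which bind MTF-1. Each window runs from 250 bases before to 50 bases after a RefSeq transcript start (GRCm38.p6, the same assembly as mm10), 5′ to 3′, and the capitals mark metal response elements, searched on both strands as TGCACNC or TGCGCNC. The Mt2 window covers chr8:94172368-94172667 and the Mt1 window chr8:94178839-94179138.
Mt2: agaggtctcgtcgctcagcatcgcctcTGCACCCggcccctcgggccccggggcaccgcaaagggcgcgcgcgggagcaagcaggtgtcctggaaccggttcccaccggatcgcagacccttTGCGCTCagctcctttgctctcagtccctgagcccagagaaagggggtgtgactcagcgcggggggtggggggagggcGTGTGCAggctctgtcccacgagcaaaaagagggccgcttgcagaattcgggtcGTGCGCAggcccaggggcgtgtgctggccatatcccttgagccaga
Mt1: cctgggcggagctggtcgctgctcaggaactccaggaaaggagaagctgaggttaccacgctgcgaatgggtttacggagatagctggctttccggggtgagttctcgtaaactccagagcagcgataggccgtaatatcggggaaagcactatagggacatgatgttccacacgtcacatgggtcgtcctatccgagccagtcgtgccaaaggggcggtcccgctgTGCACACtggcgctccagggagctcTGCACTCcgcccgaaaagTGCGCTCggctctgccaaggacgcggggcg
The Mt2 window held 4 such elements and the Mt1 window 3. Such elements were not limited to the metallothioneins: the Gclm window also held 3 and the Srxn1 window 1. The windows of Nqo1, Sod1 and Txnrd1 held none. Of all 32851 windows of this length, 25.7% held at least 1, 1.97% held 3 or more and 0.517% held 4 or more. A second motif, TGACNNNGC on either strand, is the core of the antioxidant response element, and it was in 12.4% of all windows. It was found once each in the windows of Mt2, Gclm, Srxn1 and Sod1 and in 1 of the 3 windows of Txnrd1, and not in those of Mt1 or Nqo1. Windows were given for 7 of the 9 listed genes, not for Gclc or Sod3. In 1 window, that of Gclm, the 2 kinds of motif overlapped. A match is a run of letters and says nothing of binding. Bases outside the windows were not searched, so a window without a match says nothing of elements farther away. For both metallothionein genes the GENCODE annotation also lists starts downstream of those used here.

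**Figure D1:**
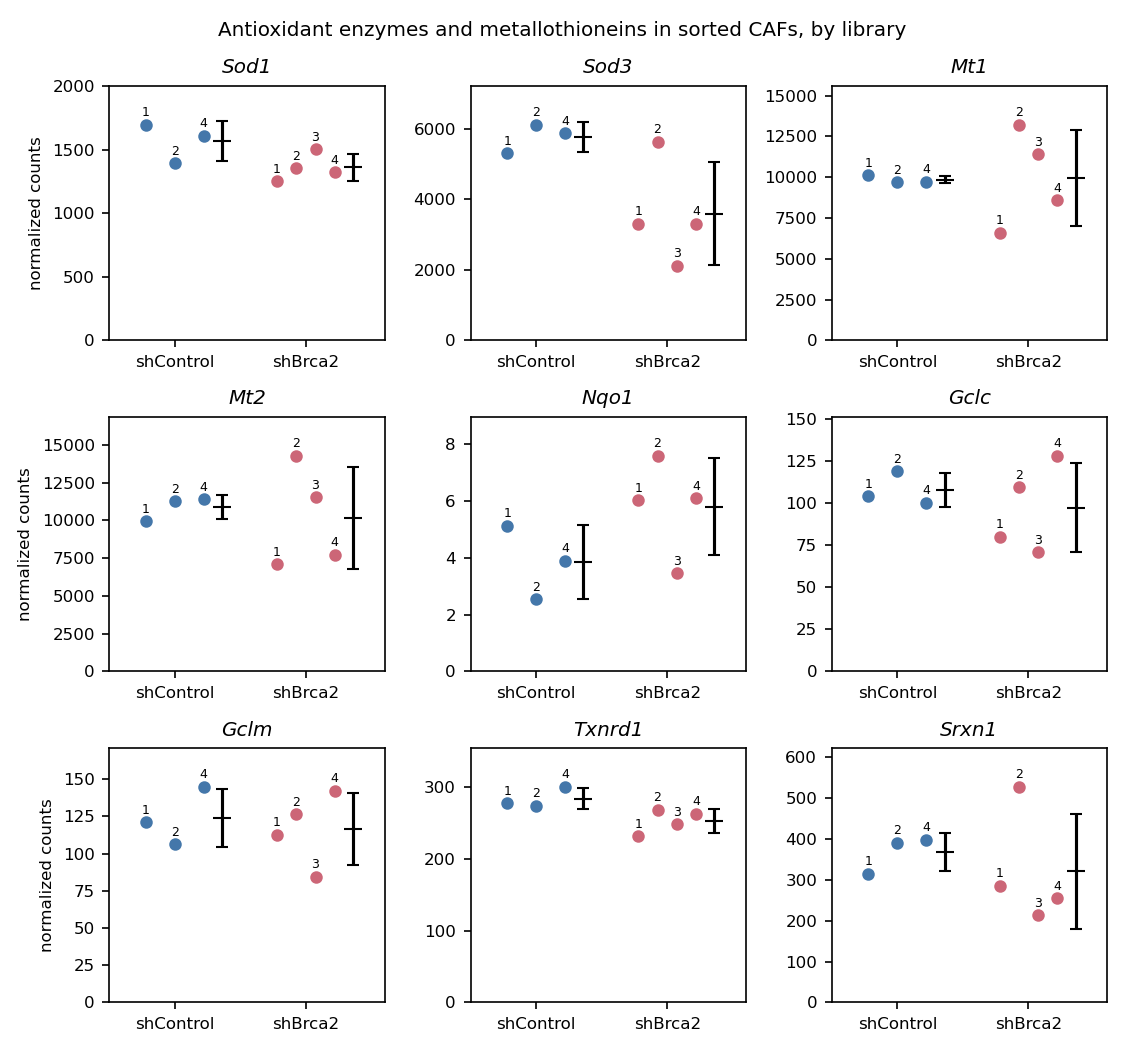
Normalized counts of the 9 genes in each library, 1 panel per gene with its own linear axis from 0. Points are libraries with their replicate number, and the bar beside each group is the mean with its SD (n = 3 shControl, n = 4 shBrca2). Txnrd1 is the 1 panel in which the groups do not overlap, and shBrca2 replicate 2 lies at the top of the panels for Nqo1, Srxn1, Mt1 and Mt2.

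A gene was called when the DESeq2 likelihood ratio test gave a Benjamini-Hochberg adjusted p under 0.1, the log2 fold change of shBrca2 over shControl was over 0.5 in size and the mean normalized count was over 5. Normalized counts are the deposited counts divided by DESeq2 size factors. Of 12768 genes with an adjusted p, 481 (3.77%) were called higher in shBrca2 CAFs and 673 (5.27%) lower, 9.04% in all. Of the 9 antioxidant and metallothionein genes, 0 were called by DESeq2 and 0 by edgeR, and 1, Sod3, had an unadjusted p under 0.05 with both tools. The share of all genes tested with an unadjusted p under 0.05 is not given here, for these genes or for the lists. With DESeq2 it was at least 9.04%, as every gene called by DESeq2 had such a p. The log2 fold change was above 0 for Nqo1 and Mt1 and below 0 for the other 7, and the median was -0.13 against 0.01 over all genes tested. For 7 of the 9 genes, all but Nqo1 and Sod3, the 95% interval of the log2 fold change lay between -1 and 1. A 2-fold difference in either direction was thus outside the interval for those 7. Each gene had its own library pattern, which is given next by function.

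In shControl libraries 1, 2 and 4, Sod3 (chr5:52363804-52369738) stood at 5298, 6106 and 5879 normalized counts. In shBrca2 libraries 1 to 4 it stood at 3306, 5625, 2121 and 3308. The shControl libraries lay close together. Of the shBrca2 libraries, replicates 1, 3 and 4 were below all of them and replicate 2 was among them. The means were 5761 ± 417 and 3590.1 ± 1467. The log2 fold change was -0.68 (SE 0.27, 95% interval -1.22 to -0.14), and its DESeq2 adjusted p of 0.12 did not pass. That outcome rested on shBrca2 replicate 2: without it the log2 fold change was -0.99 with a DESeq2 adjusted p of 1.0e-04, and Sod3 was then called lower. Leaving out any other library kept the adjusted p of the same test between 0.15 and 0.30.

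Sod1 (chr16:90220762-90226333) had 1696, 1394 and 1611 normalized counts in shControl libraries and 1255, 1357, 1504 and 1325 in shBrca2 replicates 1 to 4. Replicate 3 of shBrca2, the library lowest in Sod3, was the highest shBrca2 library in Sod1 and lay within the shControl range. The other 3 shBrca2 libraries were below every shControl library. The means were 1567 ± 155 and 1360.3 ± 105, with a log2 fold change of -0.21 (SE 0.14, 95% interval -0.48 to 0.07, DESeq2 adjusted p = 0.50). In the annotation 4217 of the 8648 exon bases of Sod1 overlap Scaf4, which lies on the opposite strand. Whether strand was used in counting is not given in the sources used here. The ends of Sod1 transcripts also share runs of 40 identical bases with Gm8566, so the Sod1 counts are uncertain to that extent. The log2 ratio of Sod3 to Sod1 within a library was 1.64, 2.13 and 1.87 in shControl and 1.40, 2.05, 0.50 and 1.32 in shBrca2 libraries. Its means were 1.88 ± 0.24 and 1.32 ± 0.64, a difference of -0.56 that was not tested. The difference was -0.29 without shBrca2 replicate 3 and -0.81 without shBrca2 replicate 2. In the ratio too, shBrca2 replicate 2 lay within the shControl values. Ccs, the chaperone that hands copper to Sod1, had 222 ± 17.9 and 184 ± 11.2 normalized counts (log2 fold change -0.27, DESeq2 adjusted p = 0.42).

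The NRF2-driven enzymes of glutathione and thioredoxin metabolism showed no difference past the test. Gclc (chr9:77754535-77794489) had 104, 119 and 100.2 normalized counts in shControl and 80.0, 110, 70.8 and 128 in shBrca2 libraries. The shBrca2 values spread to both sides of the shControl values, with replicates 1 and 3 below them and replicate 4 above. The log2 fold change was -0.13 (SE 0.25, 95% interval -0.62 to 0.35, DESeq2 adjusted p = 0.87). Its partner Gclm (chr3:122245487-122267215) had 121, 106 and 145 normalized counts in shControl and 113, 126, 84.6 and 142 in shBrca2 libraries. Here replicate 3 alone fell outside the shControl range. Gclm had a log2 fold change of -0.08 (SE 0.23, 95% interval -0.53 to 0.37, DESeq2 adjusted p = 0.92). The ends of Gclm transcripts share runs of 40 identical bases with Ppia, and 492 exon bases overlap a gene on the same strand, so its counts are uncertain to that extent.

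Txnrd1 (chr10:82833951-82897724) was the 1 gene of the 9 whose groups did not overlap. Over all genes tested 17.1% had groups that did not overlap. It had 278, 275 and 301 normalized counts in shControl and 231, 269, 249 and 263 in shBrca2 libraries. The gap was narrow, 269 against 275, beside means of 284 ± 14.2 and 253 ± 16.7. Its log2 fold change of -0.17 (SE 0.16, 95% interval -0.47 to 0.14) did not pass (DESeq2 adjusted p = 0.66). Srxn1 (chr2:152105524-152111376) had 315, 391 and 398 normalized counts in shControl and 286, 528, 214 and 255 in shBrca2 libraries. Its shBrca2 replicate 2 was the highest of all 7 libraries, and the other 3 were the lowest. The log2 fold change was -0.19 (SE 0.29, 95% interval -0.76 to 0.38, DESeq2 adjusted p = 0.83), and without shBrca2 replicate 2 it was -0.54 with a DESeq2 adjusted p of 0.11, which also did not pass.

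Nqo1 (chr8:107388225-107403205) was close to the detection limit. It had 6, 2 and 4 raw counts in shControl and 7, 13, 2 and 6 in shBrca2 libraries, or 5.13, 2.53 and 3.89 against 6.02, 7.58, 3.45 and 6.10 normalized counts. Its mean over all libraries, 4.96, was under the minimum of 5, so it could not be called whatever its p. The log2 fold change was 0.61 with an SE of 0.73 and a 95% interval of -0.82 to 2.05, and a difference was not detectable at this depth.

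**Figure D2:**
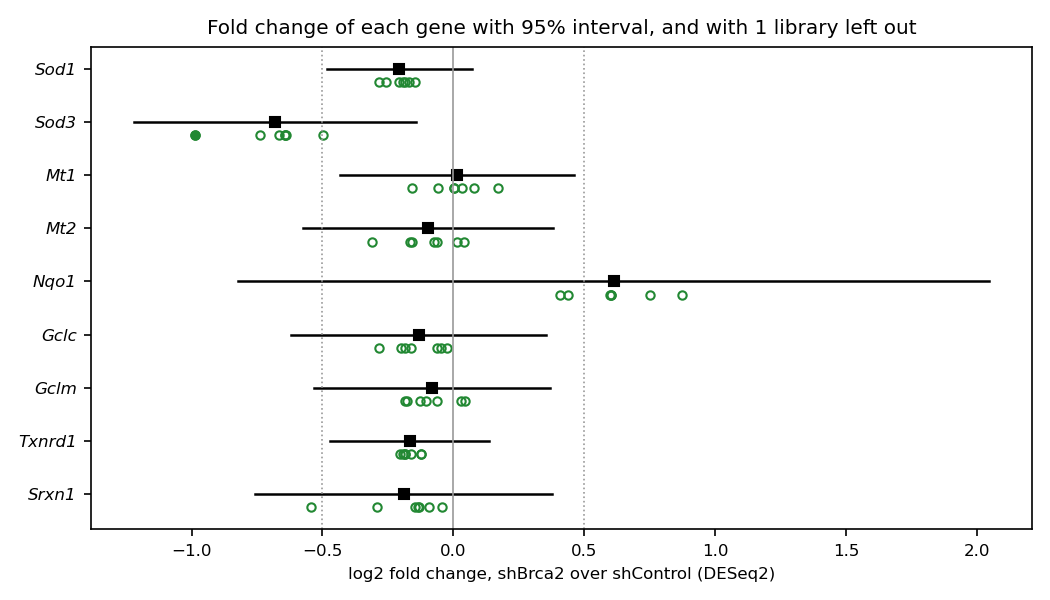
Log2 fold change of shBrca2 over shControl for each of the 9 genes by DESeq2 (filled points, with 95% intervals), and the values with 1 library left out at a time. The solid line is 0 and the dotted lines are the limits of 0.5 used for calls. The Sod3 interval, -1.22 to -0.14, is the 1 that does not reach 0, and Nqo1 has the widest.

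The shControl libraries 1, 2 and 4 held 10123, 9709 and 9724 normalized counts of Mt1. The shBrca2 libraries 1 to 4 held 6594, 13207, 11397 and 8597. The 3 shControl libraries were almost level, with the highest 1.04 times the lowest, and the shBrca2 libraries lay on both sides of them, 2 above and 2 below. The means were 9852 ± 235 and 9949 ± 2932, a fold of 1.01 (95% interval 0.741 to 1.38, DESeq2 adjusted p = 0.97). Mt2 had 9967, 11265 and 11388 normalized counts in shControl and 7104, 14271, 11553 and 7728 in shBrca2 libraries. The order of the shBrca2 libraries was the same as for Mt1: replicate 2, then 3, then 4, then 1. Its means were 10873 ± 788 and 10164 ± 3371, a fold of 0.935 (95% interval 0.672 to 1.30, DESeq2 adjusted p = 0.91).

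Among the shBrca2 libraries the metallothioneins varied less in their ratio to each other than in their levels. The SD of their log2 ratio was 0.12 there, against 0.44 for Mt1 and 0.48 for Mt2. Among the shControl libraries the SD of the ratio was 0.14, above the 0.03 of Mt1 and the 0.11 of Mt2. The log2 ratio of Mt2 to Mt1 was -0.02, 0.21 and 0.23 in shControl libraries and 0.11, 0.11, 0.02 and -0.15 in shBrca2 libraries. The means were 0.14 ± 0.14 and 0.02 ± 0.12, so that the groups differed by less than the spread within either. The transcripts of Mt1 and Mt2 share no run of identical bases longer than 20. In the annotation 783 of the 950 exon bases of Mt2 overlap a gene on the opposite strand that is not listed in the count table, and Mt1 overlaps no other exon. Taken as log2 differences from the shControl mean, shBrca2 replicates 1 to 4 stood at -0.58, 0.42, 0.21 and -0.20 for Mt1 and at -0.61, 0.39, 0.09 and -0.49 for Mt2. For Sod3 the same differences were -0.80, -0.03, -1.44 and -0.80, and for Srxn1 they were -0.36, 0.53, -0.77 and -0.52. Replicate 3, where Sod3 and Srxn1 stood lowest, thus had metallothionein levels slightly over the shControl mean.

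The spread between libraries of the shBrca2 group differed among these genes. The SD of log2 values over the shBrca2 libraries was 0.58 for Sod3, 0.56 for Srxn1, 0.48 for Mt2, 0.44 for Mt1, 0.39 for Gclc, 0.32 for Gclm, 0.11 for Sod1 and 0.096 for Txnrd1, against a median of 0.21 among the 6735 genes whose mean normalized count exceeded 50. In the shControl libraries the SD was 0.11 for Sod3, 0.19 for Srxn1, 0.11 for Mt2, 0.03 for Mt1, 0.13 for Gclc, 0.22 for Gclm, 0.15 for Sod1 and 0.071 for Txnrd1, against a median of 0.23. Nqo1, with few counts, had an SD of 0.40 in either group. Whether the spread differs between the groups was not tested. Replicate 2 of shBrca2 was the highest of all 7 libraries for 4 genes (Nqo1, Srxn1, Mt1 and Mt2). Replicate 1 was the lowest of all 7 for 4 genes (Txnrd1, Sod1, Mt1 and Mt2), and replicate 3 for 4 others (Gclc, Gclm, Srxn1 and Sod3). Replicate 2 is also the deepest library and replicate 3 the shallowest, and the part of depth was not tested. Among fibroblast markers, Dpt, a matrix protein gene of adventitial fibroblasts, had its highest shBrca2 value in replicate 2. It had 1713, 4323, 2378 and 1436 normalized counts in shBrca2 replicates 1 to 4 and 10607, 5909 and 7968 in shControl libraries. Dpt was the called fibroblast marker that moved most without shBrca2 replicate 2, from a log2 fold change of -1.73 to -2.15. Pi16 moved from -1.35 to -1.43, Lum from -1.18 to -1.26 and Dcn from -0.77 to -0.83.

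**Figure D3:**
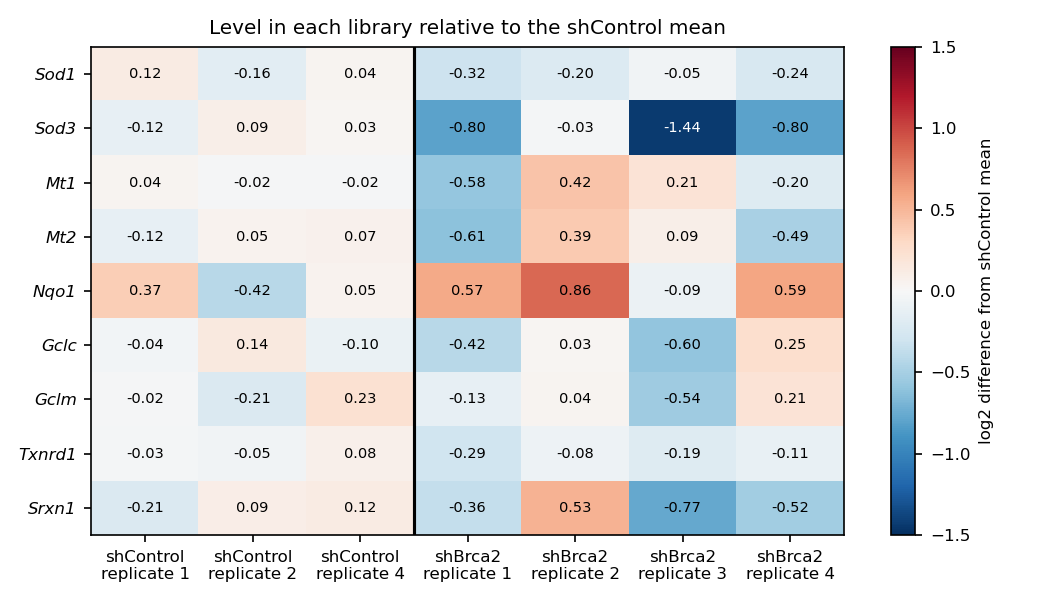
Log2 difference of each library from the shControl mean for the 9 genes (rows) in the 7 libraries (columns, shControl left of the black line). The shBrca2 columns differ among themselves: replicate 2 is above 0 for Srxn1, Mt1 and Mt2, replicate 1 is below 0 for both metallothioneins, and replicate 3 is lowest for Sod3 at -1.44.

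The regulators of NRF2 were measured to see whether their RNA moved. Nfe2l2 itself had 582 ± 125 normalized counts in shControl and 568 ± 88.0 in shBrca2 CAFs (log2 fold change -0.04, SE 0.20), and Keap1 had 339.8 ± 20.4 and 309 ± 38.3 (log2 fold change -0.14, SE 0.17). Of 11 regulator genes 1 was called higher and none lower, and the median log2 fold change was -0.01. The one called was Bach1, whose protein competes with NRF2 at antioxidant response elements and is released by heme. It had 46.1, 44.3 and 32.1 normalized counts in shControl and 86.9, 71.1, 74.3 and 60.0 in shBrca2 libraries, so the groups did not overlap. Its log2 fold change was 0.84 (SE 0.27, DESeq2 adjusted p = 0.031). The call was lost without shControl replicate 1 (DESeq2 adjusted p = 0.104) or 4 (0.28) and without shBrca2 replicate 1 (0.25) or 2 (0.101), with log2 fold changes of 0.69 to 0.95.

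Of 23 further NRF2 targets tested, 1 was called higher and 2 lower, and the median log2 fold change was -0.19. Hmox1, heme oxygenase 1, had 345, 307 and 302 normalized counts in shControl and 576, 594, 390.3 and 808 in shBrca2 libraries. Every shBrca2 library was above every shControl library. Hmox1 rose by a log2 fold change of 0.90 (SE 0.23, DESeq2 adjusted p = 0.0050). Gstm1, a glutathione transferase of the mu class, had 1504, 763 and 1555 against 259.9, 621, 396 and 419 normalized counts. It fell by 1.59 on the log2 scale (SE 0.31, DESeq2 adjusted p = 2.8e-05), and the groups did not overlap. The ferritin light chain gene Ftl1 had 8018 ± 2203 and 5237 ± 670.4 normalized counts and was called lower (log2 fold change -0.62, DESeq2 adjusted p = 0.051), but not without shControl replicate 1 (adjusted p = 0.33) or 4 (0.25) or without shBrca2 replicate 1 (0.19) or 4 (0.21). The heavy chain gene Fth1 had a log2 fold change of 0.17 that did not pass (DESeq2 adjusted p = 0.64).

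Of 17 enzymes that make or use glutathione, 3 were called lower and none higher, and the median log2 fold change was 0.02. Gpx3, the secreted glutathione peroxidase, had 18747, 17985 and 21288 normalized counts in shControl and 8958, 16337, 10368 and 10521 in shBrca2 libraries. All shBrca2 libraries were below all shControl libraries, and replicate 2 was the one nearest to them, as it was for Sod3. Gpx3 fell by 0.74 on the log2 scale (SE 0.22, DESeq2 adjusted p = 0.012). The theta class transferases Gstt1 (log2 fold change -1.39, SE 0.34) and Gstt2 (-0.97, SE 0.32) were called lower too. Gstt2 was not called without shControl replicate 1 or 4 or shBrca2 replicate 1 or 4, where the DESeq2 adjusted p was 0.21, 0.27, 0.26 and 0.16. Glutathione transferases have near-identical family members, so reads could have been split among them in counting. Gsr, glutathione reductase, had a log2 fold change of 0.69 (SE 0.28) and missed the threshold (DESeq2 adjusted p = 0.12).

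Of 19 thioredoxin and peroxiredoxin genes 0 were called by DESeq2 and 0 by edgeR, and 1 had an unadjusted p under 0.05 with either tool. Their median log2 fold change was 0.03. Catalase (Cat), which breaks down hydrogen peroxide in peroxisomes, had 62.7 ± 1.79 and 65.0 ± 7.42 normalized counts (log2 fold change 0.06, SE 0.24). Of 9 tested genes on a list of superoxide sources, 1 was called lower, with a median of -0.02. This was Duox1, a dual oxidase of epithelia that makes hydrogen peroxide, with 21.4, 22.8 and 18.5 against 5.16, 7.58, 6.91 and 7.11 normalized counts. Its log2 fold change was -1.63 (SE 0.47, DESeq2 adjusted p = 0.011), a call lost without shControl replicate 1 (adjusted p = 0.115) or shBrca2 replicate 1 (0.116).

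Metal supply to the dismutases and metallothioneins was examined last. Mtf1, the zinc-sensing factor that drives Mt1 and Mt2, had 17.4 ± 2.66 and 13.0 ± 4.88 normalized counts (log2 fold change -0.36, SE 0.45). The zinc exporter Slc30a1, another MTF-1 target, had 43.1 ± 5.03 and 37.9 ± 7.49 (log2 fold change -0.21, SE 0.29). Of 19 zinc and metal handling genes tested 1 was called higher and none lower, with a median of -0.02. The zinc and manganese importer gene Slc39a8 (ZIP8) had 42.7, 82.2 and 87.6 against 120.5, 117, 173 and 109.8 normalized counts. Its log2 fold change was 0.87 (SE 0.29, DESeq2 adjusted p = 0.042), and the call was lost without shControl replicate 1 (adjusted p = 0.33) or shBrca2 replicate 1 (0.106) or 3 (0.13).

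Of 9 tested genes of copper supply, dismutase maturation and mitochondrial metal import, 1 was called higher and 1 lower, and the median log2 fold change was 0.07. Slc25a37, mitoferrin 1, which carries iron into mitochondria, had 28.2, 22.8 and 42.8 against 62.0, 57.7, 65.6 and 62.0 normalized counts (log2 fold change 0.97, SE 0.29, DESeq2 adjusted p = 0.018). Slc31a2, which codes for the copper transporter family protein CTR2, had a log2 fold change of -0.93 (SE 0.29, DESeq2 adjusted p = 0.020). The Slc25a37 call was lost without shControl replicate 1 (adjusted p = 0.19) or 2 (0.13) or shBrca2 replicate 1 (0.12). That of Slc31a2 was lost without shControl replicate 1 (adjusted p = 0.168) or 4 (0.170) or shBrca2 replicate 1 (0.15) or 4 (0.12).

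**Figure D4:**
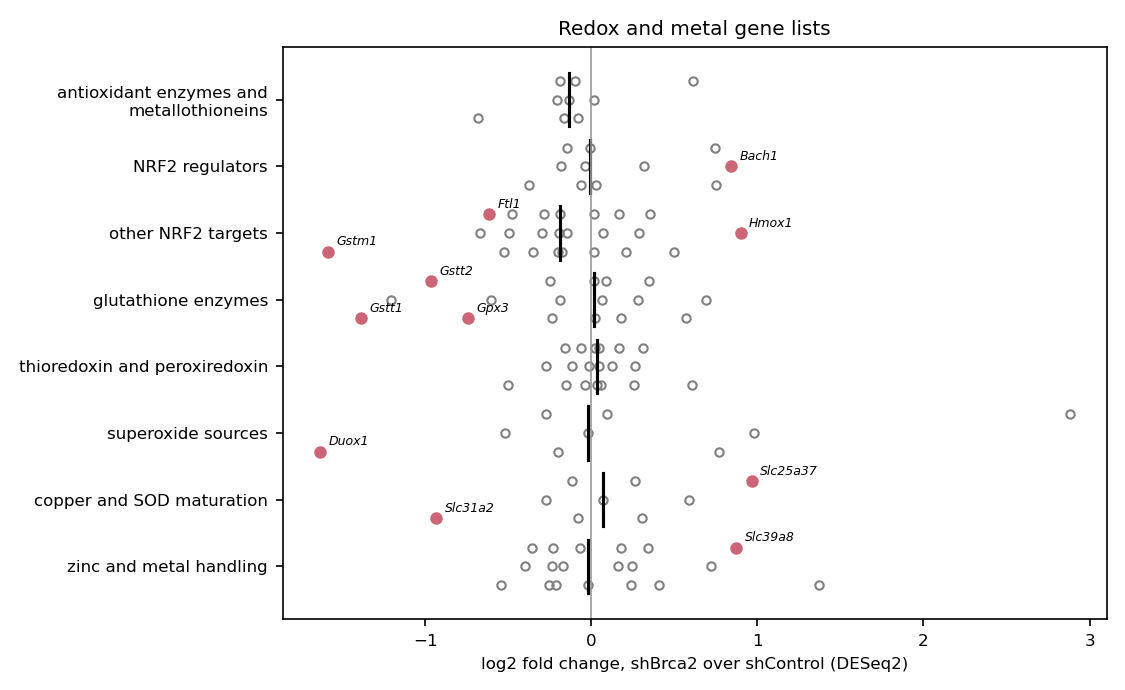
Log2 fold change of shBrca2 over shControl (DESeq2, horizontal axis) for the 9 genes and for the lists of redox and metal genes around them, 1 point per gene. Genes that passed the call are set apart and named; the row of antioxidant enzymes and metallothioneins holds none, while Hmox1 at 0.90 and Gstm1 at -1.59 stand in the row of other NRF2 targets.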

How the data were processed

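The authors deposited 1 table of raw counts per gene symbol for the 7 libraries, made from 3′ reads of a MARS-seq variant. The submitters' processing notes name bcl2fastq, cutadapt, STAR 2.4.2a, HTSeq, DESeq2 and mm10. The annotation, the strand setting and the collapsing of molecular barcodes are not given in the sources used here, so counts may include PCR copies. Groups came from the silencing label of each sample, and replicates are separate mice per the study. Every pair of libraries differed by more than sampling noise. The test was that of the study: a likelihood ratio test of the group in DESeq2 1.42.0 under R 4.3.3, over all 7 libraries, without a covariate. Calls needed a Benjamini-Hochberg adjusted p under 0.1, a log2 fold change over 0.5 in size and a mean normalized count over 5. Of 12771 genes, 3 had no adjusted p. Fold changes were not shrunken. edgeR 4.0.16 (quasi-likelihood), other scaling and filters, a replicate block and leaving out each library were the alternatives. The genes described and the lists around them were chosen with earlier results of these data known. Named were the 9 genes, called genes of the redox and metal lists, and fixed reference genes such as Nfe2l2, Keap1 and Cat. Genes with a like pattern were to be named for called members and none was called. A planned ratio to Sod2 was not computed. Same-numbered libraries did not deviate together (correlations -0.13, -0.17 and -0.18). The code was tested on simulated data. Exon overlaps were taken from GENCODE vM39 on GRCm39, and positions and start regions from RefSeq on GRCm38.p6.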

Additional observations from a re-analysis of the deposited data

How the results depend on the processing

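The call of none of the 9 genes held under every alternative except the omission of shBrca2 replicate 2, where Sod3 was called lower (log2 fold change -0.99), so that the number of them called lower ran from 0 to 1 when libraries were left out. Leaving out 1 library at a time moved the number of genes called higher between 261 and 610, and of genes called lower between 354 and 695. It moved the log2 fold change of Gclm between -0.18 and 0.043, of Mt1 between -0.16 and 0.17, of Mt2 between -0.31 and 0.042, of Nfe2l2 between -0.17 and 0.14 and of Cat between -0.038 and 0.10. With the replicate number as a replicate block, over all 7 libraries, 211 genes were called higher and 280 lower, Gclm stood at 0.039 and Mt1 at -0.12. In that fit shBrca2 replicate 3 was alone in its block, so the group comparison rested on the numbers both groups share. Named genes losing their call with the block were Gstm1, Gstt1, Gstt2, Bach1, Ftl1, Slc31a2, Slc25a37, Slc39a8, Zbtb16, Cebpd, Bcl3, Dcn, Lum, Dpt and Cldn3. Duox1 and C1qa had no adjusted p with the block. Hmox1, Gpx3, Hsd11b1, Ddit4, Icam1, Pi16, Krt8, Krt18, Krt19, Csf1r and Ndufa4l2 were called. The numbers were not found to pair libraries. Under edgeR 464 genes were called higher and 655 lower. Of 116 alternatives for the 9 genes, 107 kept direction and call, 8 changed sign and 1 became a call. Of 582 for 45 genes of the lists, 472 kept both, 107 lost the call and 3 changed sign. Hmox1 and Gpx3 were called in all. A filter on low counts removed Nqo1. Low counts limit Nqo1, and wide spread among shBrca2 libraries limits the metallothioneins, Srxn1 and Sod3. Other scalings moved the median of all genes by under 0.01 (log2).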

Other observations

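Metallothioneins also respond to glucocorticoids, and 12 genes known to be induced by these hormones were measured as a list, chosen with earlier results of these data known. By the DESeq2 likelihood ratio test 3 were called lower (Zbtb16, Hsd11b1 and Cebpd) and 1 higher (Ddit4), and the median log2 fold change was -0.35 against 0.01 over all genes tested. By edgeR 3 of the list were called. Over all genes tested, DESeq2 called 5.27% lower and 3.77% higher, 9.04% in all. Hsd11b1, which codes for the enzyme that regenerates active glucocorticoid from its inactive form, had means of 827 ± 251 (shControl) and 379 ± 97.2 (shBrca2) normalized counts (SD over 3 and 4 libraries). It fell by 1.12 on the log2 scale (SE 0.25, DESeq2 adjusted p = 0.00053) and was called in all alternatives run. Ddit4, an inhibitor of mTORC1 that hypoxia and other stresses also induce, had 814 ± 205 and 1340 ± 226 normalized counts (log2 fold change 0.72, DESeq2 adjusted p = 0.018). Its call was lost without shControl replicate 1 (adjusted p = 0.147) or 4 (0.157) or shBrca2 replicate 1 (0.109). The calls of Zbtb16 (log2 fold change -1.32) and Cebpd (-1.31) were lost without shControl replicate 1 (DESeq2 adjusted p = 0.38 and 0.40) or 4 (0.35 and 0.27) and without shBrca2 replicate 1 (0.42 and 0.23) or 4 (0.33 and 0.15), and that of Cebpd also without shBrca2 replicate 2 (0.22). Zbtb16 was not called by edgeR either (adjusted p = 0.101). The receptor gene Nr3c1 had a log2 fold change of -0.43 and the receptor co-chaperone gene Fkbp5 one of -0.26, and neither passed (DESeq2 adjusted p = 0.29 and 0.68).

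NF-kB, a factor that inflammatory signals switch on, has targets among antioxidant genes, and 13 NF-kB feedback and target genes were measured as a list. Of these 2 were called lower (Bcl3 and Icam1) and none higher, 11 had a log2 fold change below 0 and the median was -0.24. Over all genes tested, 5.27% were called lower and 9.04% in either direction. The log2 fold change was above 0 for 50.8% of all genes tested, and their median was 0.01. Whether the list differs from all genes was not tested. By edgeR 1 was called. Icam1, an adhesion molecule for leukocytes, had 986 ± 284 and 585 ± 174 normalized counts (log2 fold change -0.76, DESeq2 adjusted p = 0.054), and its call was lost without shControl replicate 1 (adjusted p = 0.14) or 4 (0.33) or shBrca2 replicate 1 (0.23) or 4 (0.20). Bcl3, an NF-kB cofactor, had a log2 fold change of -0.52 whose call was lost without the same libraries (adjusted p = 0.17, 0.44, 0.42 and 0.34), and which was not called by edgeR (adjusted p = 0.12). Nfkbia, which codes for the inhibitor of NF-kB and is its direct target, had 4963 ± 1096 and 3971 ± 711 normalized counts (log2 fold change -0.32, DESeq2 adjusted p = 0.45).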
